A study of Mus musculus with 112 samples.

Results

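Gene expression in the cerebral cortex of C57BL6/J mice on a control diet was compared with that of the other inbred strains of the series. The arrays were taken by their labels: 7 C57BL6/J control arrays, of 112 arrays in all, against 40 control arrays from 5 other inbred strains with 8 mice each, namely CBA/J, 129S1/SvImJ, DBA/2J, Balbc/J and C3H/HeJ. Each array held cortical RNA from a separate male mouse that was bought at 6 weeks of age, housed alone, given 84 kcal of an AIN93M-type diet per week until 8 weeks, kept on the control diet and killed at 22 weeks after a night without food. None of the strains carried an engineered allele. The same strains on a calorie restricted (CR) diet, with 8 C57BL6/J arrays and 40 of the others, served as a repeat in other mice that shared no array with the control comparison, and 7 control arrays of the hybrid B6C3F1/J showed the level in mice with a C57BL6/J and a C3H/HeJ parent. By the study's methods the ration was not equal in all strains: Balbc/J mice received more on both diets, and the CR ration of C57BL6/J and 129S1/SvImJ was lowered further during the study, so that strain and ration cannot be told apart in those contrasts.

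C57BL6/J is the strain most used in mouse genetics, and the mouse reference genome was built from it. Animals of an inbred strain are close to genetically identical, so a variant fixed in the strain is present in all of them and in both copies. C57BL6/J is known for its voluntary intake of ethanol, for hearing loss with age, for a deletion in Nnt, a mitochondrial enzyme that makes NADPH, and for an intronic deletion that lowers Gabra2, a subunit of the GABA-A receptor.

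The 19938 genes tested were read as log2 signal, and a difference of 1 log2 unit is a change of 2-fold. Array medians lay between 7.14 and 7.26. C57BL6/J control replicate 6 was left out because its 14 cerebellar markers exceeded the rest of its group by 4.03 log2 units at the median and its excitatory neuron markers lay 1.53 below. B6C3F1/J control replicate 8 was left out for the same reason (4.03 units). DBA/2J control replicate 8 lay 1.15 units up in those markers and was kept. In the 7 arrays analysed the mean signal of the cerebellar markers was 7.35 to 7.63, against 7.33 to 8.82 in the other strains. Tbr1, a transcription factor of deep-layer cortical neurons, was at 9.73 to 10.10 in C57BL6/J and 9.45 to 10.25 in the other strains, so this cortical marker was present in both. The spread of each array around the median array, as an interquartile range over genes, had a median of 0.258 in C57BL6/J and 0.198 in the other strains.

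Promoters of 3 genes whose arrays separated C57BL6/J from every other strain are shown because the RefSeq assembly GRCm38.p6 is of C57BL6/J itself, so the letters are those of this strain; the windows of the other strains were not analysed here. Each window runs 5′ to 3′ along the gene's strand, from 250 bases before the annotated start to 50 after it. Pttg1 was higher in C57BL6/J, Dnah6 and Gabra2 lower. The windows lie on the minus strand at chr11:43425932-43426231, chr6:73221582-73221881 and chr5:71095800-71096099, and capitals mark matches on either strand to the TATA box (TATAAA), the CCAAT box (CCAAT), the GC box (GGGCGG) and the E-box (CACGTG).
Pttg1: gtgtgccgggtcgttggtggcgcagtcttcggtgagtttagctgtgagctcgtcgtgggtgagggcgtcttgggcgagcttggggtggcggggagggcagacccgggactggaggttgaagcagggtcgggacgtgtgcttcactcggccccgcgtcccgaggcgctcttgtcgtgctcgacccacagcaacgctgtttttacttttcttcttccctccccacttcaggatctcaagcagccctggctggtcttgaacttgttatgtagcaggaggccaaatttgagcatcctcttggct
Dnah6: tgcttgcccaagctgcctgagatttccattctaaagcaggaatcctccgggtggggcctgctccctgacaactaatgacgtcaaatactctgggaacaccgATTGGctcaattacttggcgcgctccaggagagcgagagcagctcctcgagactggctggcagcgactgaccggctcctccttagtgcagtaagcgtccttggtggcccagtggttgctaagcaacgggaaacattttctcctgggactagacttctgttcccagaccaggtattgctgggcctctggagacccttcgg
Gabra2: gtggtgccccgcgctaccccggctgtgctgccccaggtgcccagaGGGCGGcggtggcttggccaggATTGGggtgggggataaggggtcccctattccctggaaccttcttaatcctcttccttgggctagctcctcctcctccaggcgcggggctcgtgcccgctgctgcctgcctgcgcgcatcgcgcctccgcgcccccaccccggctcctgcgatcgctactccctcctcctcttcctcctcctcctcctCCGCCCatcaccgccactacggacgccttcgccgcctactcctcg
The Pttg1 window held 0 matches. The Dnah6 window held 1 CCAAT box, on the reverse strand, and the Gabra2 window held 1 CCAAT box and 2 GC boxes. Over all 32851 promoter windows of that length, 37.4% held a CCAAT box, 35.7% a GC box, 13.6% a TATA box and 7.15% an E-box.

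Among genes that differed from each of the 5 strains, Pttg1 stood furthest above them. Pttg1 encodes securin, which inhibits separase until anaphase and so delays the parting of sister chromatids. Its signal was 8.48 at the lowest, 8.64 at the median and 8.89 at the highest in C57BL6/J, against 6.17, 6.44 and 6.95 in the 40 other arrays. No array of the other strains reached the lowest C57BL6/J array, and the difference was 2.17 ± 0.051 (standard error; 4.50-fold; limma, adjusted p = 2.39e-34). DBA/2J came nearest and still lay 1.84 units below. In CR mice the difference was 2.16, again with no overlap.

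Trim12a, of the TRIM family whose members include antiviral restriction factors, was next. It measured 5.22 to 6.24 with a median of 5.82 in C57BL6/J and 3.70 to 4.33 with a median of 3.92 in the other strains. The groups did not overlap (1.84 ± 0.073, adjusted p = 4.89e-25; 1.53 in CR mice). The other strains lay below the mean signal of olfactory receptors, genes mostly silent in cortex (4.84 to 5.26 there), so the size and rank of this difference are those of the signals and not a measured ratio of Trim12a RNA. Fcrls, an Fc receptor-like scavenger receptor known in the brain from microglia, had 7.51, 7.82 and 8.16 as lowest, median and highest in C57BL6/J and 5.81, 6.47 and 6.83 in the others. The gap to Balbc/J, the nearest strain, was 1.08, and the difference from all 5 was 1.33 ± 0.069 (adjusted p = 1.53e-20). Nfu1, which helps to place iron-sulfur clusters in mitochondrial enzymes, was at 10.55 to 10.79 in C57BL6/J and 9.05 to 9.91 in the others, a difference of 1.17 without overlap (0.64 by the other Nfu1 probe set). Il33, a nuclear cytokine of the interleukin-1 family that glia release on injury, was at 9.31 to 9.56 in C57BL6/J and 7.63 to 8.92 in the others. Its C57BL6/J arrays were tightly grouped (SD 0.09, n = 7) while the other strains spread over more than a unit.

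Several of the 12 highest overlapped with single strains. Etnppl, an astrocyte enzyme that breaks down phosphoethanolamine, was at 8.02 to 8.85 in C57BL6/J and 5.55 to 8.04 in the others. C57BL6/J exceeded C3H/HeJ by 2.29 and Balbc/J by 0.59, so the size of its difference depended on the strain chosen. Gas5, a long noncoding RNA that hosts small nucleolar RNAs (snoRNAs) in its introns, differed by 1.04 ± 0.059 from all 5 and by 0.26 from Balbc/J. Its 3 further probe sets gave Gas5 differences of 0.17, 0.83 and 0.98, all called. Tmem267, a transmembrane protein, differed by 1.13, and again least from Balbc/J (0.39). Snord73b, annotated as a small nuclear RNA gene (1.34), the noncoding genes G530011O06Rik (1.38) and Gm10635 (1.14, from arrays at 4.56 to 5.70 in C57BL6/J and 3.58 to 4.75 in the others, likewise at or below the olfactory receptor level), and Eqtn (1.06), which encodes a protein of the sperm acrosome, made up the rest. G530011O06Rik ranged from 7.85 to 9.47 within C57BL6/J itself, the widest spread of the 12 in that strain (SD 0.51, n = 7).

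**Figure D1:**
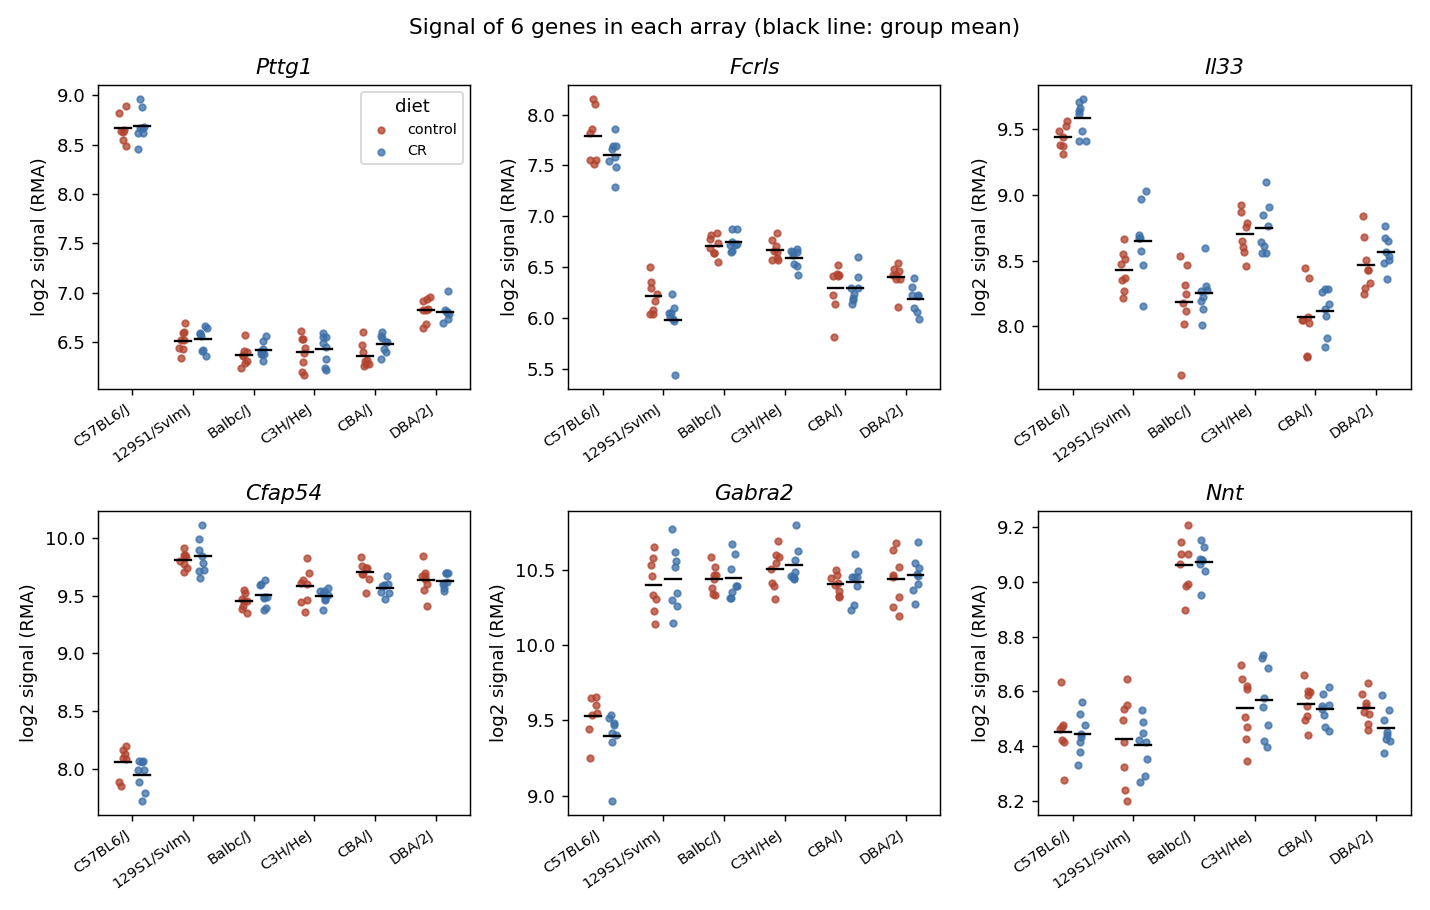
Log2 RMA signal (vertical axes) of 6 genes in each array of C57BL6/J and the 5 other inbred strains, in control (red) and CR (blue) mice; black lines are group means. Pttg1, Fcrls and Il33 lie above and Cfap54 and Gabra2 below every other strain in both diets, whereas Nnt in C57BL6/J is level with 129S1/SvImJ and Balbc/J alone stands above.

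On the lower side Cfap54 came first among genes called against each strain. It encodes a protein of the central apparatus of motile cilia. C57BL6/J arrays held 7.85, 8.10 and 8.20 as lowest, median and highest, against 9.35, 9.66 and 9.92 in the other strains. The groups were separated by more than 1 unit, with a difference of -1.58 ± 0.046 (adjusted p = 1.04e-30) in control and -1.66 in CR mice. By the other Cfap54 probe set the control difference was -1.07. Dnah6, a heavy chain of axonemal dynein and thus also a gene of motile cilia, had 5.47, 5.91 and 6.13 in C57BL6/J and 6.56, 7.35 and 8.11 in the others. Its difference was -1.45 ± 0.111 (adjusted p = 9.23e-15), smallest against Balbc/J at -0.96. Sfrp1, a secreted inhibitor of Wnt signalling, was at 7.24 to 7.45 in C57BL6/J and 7.88 to 9.08 in the others (-1.14 ± 0.071).

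Gabra2 separated the groups fully. Its signal was 9.25, 9.55 and 9.65 as lowest, median and highest in C57BL6/J and 10.14, 10.45 and 10.69 in the other strains. The difference was -0.91 ± 0.055 (1.88-fold lower; adjusted p = 2.47e-18), and against the single strains it ran only between -0.88 and -0.98. In CR mice it was -1.07.

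Masp2, the protease that starts complement cleavage in the lectin pathway, differed by -1.11 ± 0.052 from all 5 strains but by -0.23 from DBA/2J. Abhd1 behaved alike: -0.86 over the 5 strains and -0.22 against DBA/2J. Trappc2l, a part of the TRAPP vesicle-tethering complex, was -0.81 over the 5 strains, with -1.50 against Balbc/J and -0.23 against CBA/J. For these 3 genes most of the difference came from the other 3 or 4 strains. Pla2g4e, a phospholipase A2 family enzyme that makes N-acyl phosphatidylethanolamines, was at 7.18 to 7.66 in C57BL6/J and 7.61 to 9.18 in the others (-1.10). P4ha3, a prolyl hydroxylase of collagen, Ocel1, Hdhd3 and AI413582 were 0.82 to 0.87 units lower, and their arrays did not overlap with the other strains.

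Snord53, a snoRNA gene named here after its values were seen, had the lowest difference of all genes tested (-2.26 ± 0.091) without being particular to C57BL6/J. It averaged 8.70 ± 0.24 in C57BL6/J (SD, n = 7) and 8.62 ± 0.15 in 129S1/SvImJ (SD, n = 8), and the other 4 strains averaged 11.15 to 11.97. The C57BL6/J and 129S1/SvImJ arrays overlapped (0.08, adjusted p = 0.558), so the strains fell into 2 levels.

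The variants known from C57BL6/J were read as a check of the labels. Nnt did not separate the strain: 8.28, 8.46 and 8.63 as lowest, median and highest in C57BL6/J, against 8.20, 8.56 and 9.21 in the others. C57BL6/J differed from Balbc/J by -0.61 (adjusted p = 6.38e-12) and from 129S1/SvImJ by 0.03 (adjusted p = 0.708). Which exons its probe set reads is not given in the sources used here, and the label check therefore rests on Gabra2. The Nnt difference over 5 strains (-0.17 ± 0.044, adjusted p = 0.00136) was lost without Balbc/J (-0.06, adjusted p = 0.233). Glo1, glyoxalase 1, which clears methylglyoxal and is duplicated in some strains, was -0.37 ± 0.047, lower than in 4 strains and level with Balbc/J (0.05). Pla2g2a, a secreted phospholipase, was at 5.50 to 6.00 in C57BL6/J and 5.57 to 6.22 in the others (-0.17, adjusted p = 0.022), and at 0.02 in CR mice; the call was lost under quantile normalization (adjusted p = 0.555). In all, 1 of 8 measured members of this list was called higher (12.5%, against 21.7% of all genes) and 5 lower (62.5%, against 31.4%), with a median of -0.15. Gabra2 alone was lower than in each of the 5 strains. In CR mice 0 members were called higher and 3 lower, with a median of -0.04.

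Over all genes, the contrast with the mean of the 5 strains called 10573 genes at an adjusted p under 0.05, which is 53.0% of those tested. The 4321 called higher were 21.7%, and the 6252 called lower 31.4%. Most differences were small: the median size among called genes was 0.20, 127 called genes passed 1.5-fold and 23 passed 2-fold. A stricter count took genes that were called in the same direction against each strain singly. It held 898 higher (4.50%) and 849 lower (4.26%), 1747 in all, with a median size of 0.30. Every C57BL6/J array lay above all 40 others for 169 genes (0.848%) and below all of them for 71 (0.356%).

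The nearest strain differed from gene to gene. C57BL6/J was called different from Balbc/J in 5005 genes and from C3H/HeJ in 5088, from DBA/2J in 7296, from CBA/J in 10279 and from 129S1/SvImJ in 12281. Among the 1747 genes, the closest strain mean belonged to Balbc/J for 643, C3H/HeJ for 577, DBA/2J for 244, 129S1/SvImJ for 174 and CBA/J for 109. The order of these 5 counts is a description; the difference between them was not tested.

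The direction of the small differences moved with the signal of the gene. Of 5 equal groups of genes by mean signal, the dimmest had a median difference of -0.12, with 105 called higher and 1350 lower, and the brightest one of 0.05, with 1577 higher and 824 lower. Olfactory receptors, whose genes are mostly silent in cortex, were called higher in 5 and lower in 327 of 1027, with a median of -0.12 against -0.05 over all genes. Their mean signal was 4.91 to 5.00 in C57BL6/J arrays, inside the 4.84 to 5.26 of the other strains. Under quantile normalization of the arrays 24 olfactory receptors were called higher and 63 lower. When the fit also took that mean signal into account, 2796 of all genes lay higher and 2985 lower, and 1026 differed from each strain, of which 915 were among the 1747. The part that array scaling has in the count of lower genes was not tested further, so differences of dim genes and lists of small median are given below as values only.

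**Figure D2:**
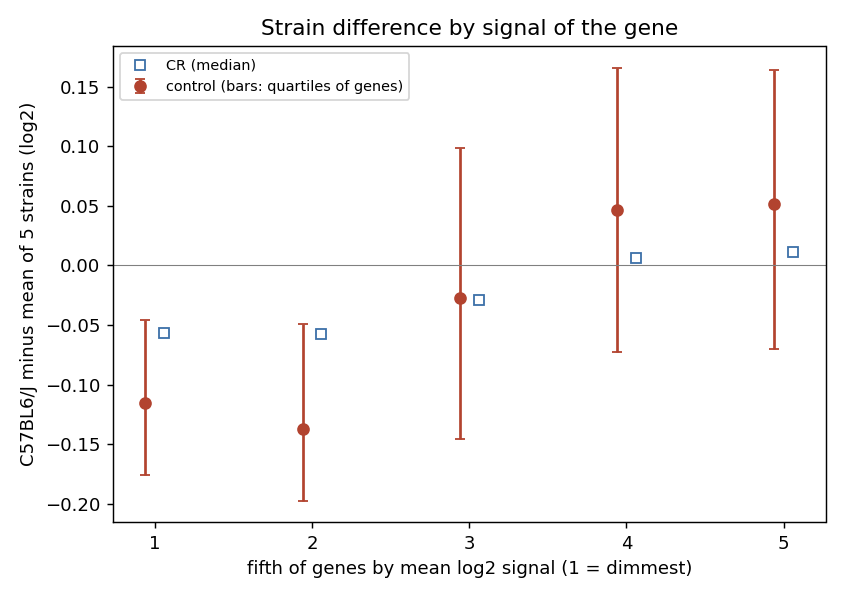
Difference of C57BL6/J from the mean of the 5 strains (vertical axis, log2) for genes in 5 equal groups of mean signal (horizontal axis, dimmest at the left), as median and quartiles over genes in control mice (red) and median in CR mice (blue squares). The control medians run from -0.12 in the dimmest group to 0.05 in the brightest.

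Myelin genes were higher in C57BL6/J. Of 13 measured markers of oligodendrocytes and myelin, 8 were called higher (61.5%, against 21.7% of all genes) and 0 lower, with a median of 0.33. Without the strain's replicate 8 the count called higher was 7, and with olfactory receptor signal as a covariate 4. In these bulk samples more cells of a type and more RNA per cell cannot be told apart. Mal, a proteolipid of compact myelin membranes, was at 10.44, 10.56 and 10.65 as lowest, median and highest in C57BL6/J and 9.09, 9.75 and 10.35 in the others. Its groups did not overlap (0.78 ± 0.070, adjusted p = 1.57e-12). Cnp, a phosphodiesterase of myelin cytoplasm, was at 10.79 to 10.93 in C57BL6/J and 9.72 to 10.79 in the others (0.41 ± 0.086). Ugt8a, which makes galactosylceramide, differed by 0.47 and Opalin, a membrane protein of mature oligodendrocytes, by 0.55. In CR mice 11 of the 13 were called higher, with a median of 0.37. The 8 markers of striatum, a region below the cortex, lay on the same side, with 7 above 0 and a median of 0.19 in control mice and 8 above 0 and a median of 0.37 in CR mice, although none was called; their part in the myelin difference was not tested. Of 8 markers of oligodendrocyte precursors, 2 were higher (25%) and 1 lower (12.5%). Among the higher ones was Pdgfra, their growth factor receptor (0.29 ± 0.046).

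Other glial and vascular markers are given beside 21.7% of all genes called higher, and 39.5% in the brightest signal group. Of 14 astrocyte markers 8 were called higher (57.1%) and 1 lower (median 0.14), with 2 higher than in each of the 5 strains. The mean signal of this list had a median of 10.27 in C57BL6/J control arrays and 10.30 in those of Balbc/J. Among the astrocyte markers called higher were Aldoc, brain aldolase (0.25 ± 0.030), and Aldh1l1, a folate enzyme (0.32 ± 0.050). Aldh1l1 was level with Balbc/J (-0.01). Of 16 markers of endothelial and mural cells 8 were higher (50%) and 2 lower (median 0.22), and in CR mice 5 and 2 (median 0.08). In control mice 3 of the 16 were higher than in each strain. The mean signal of this list had a control median of 8.67 in C57BL6/J and 8.39 to 8.59 in the other strains. In CR mice the C57BL6/J median was 8.53, between 8.32 in 129S1/SvImJ and 8.57 in C3H/HeJ. Cldn5, the claudin that seals the blood-brain barrier, was at 9.81 to 10.10 in C57BL6/J and 8.94 to 9.74 in the others, without overlap (0.59 ± 0.063). Abcb1a, the efflux pump P-glycoprotein, differed by 0.35 and Flt1, a receptor for vascular endothelial growth factor, by 0.24. Of 13 microglial markers 6 were higher (46.2%) and 2 lower (median 0.08), with 0 higher than in each strain. Their mean signal had a median of 8.16 in the control arrays of both C57BL6/J and Balbc/J.

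Of 13 markers of excitatory cortical neurons 2 were higher (15.4%) and 1 lower (7.69%), and of 14 interneuron markers 2 were higher (14.3%) and 3 lower (21.4%). For all genes these shares were 21.7% higher and 31.4% lower. Sst, the interneuron peptide somatostatin, was at 11.37, 11.44 and 11.54 in C57BL6/J and 11.47, 11.90 and 12.39 in the others (-0.44 ± 0.052), lower than in each strain. Lhx6, a transcription factor of the same interneuron lineage, was lower by less (-0.19 ± 0.034). Adarb2, an RNA-binding protein of the deaminase family, was at -0.28 and called against 2 of the 5 strains. In the other direction stood Htr3a, a serotonin-gated channel subunit (0.24; 0.09 and not called with replicate 6 included), and Pvalb, the calcium buffer parvalbumin, named after its values were seen (0.44 ± 0.112), each called against 3 of the 5 strains. The list's median was -0.02 in control and 0.07 in CR mice. Striatal markers, which would come from tissue below the cortex, had a median of 0.19 in control and 0.37 in CR mice, with 0 of 8 called in either diet: Tac1, the substance P precursor, differed by 0.46 ± 0.302 and Penk, the enkephalin precursor, by 0.36 ± 0.240. Both ranged over more than 2 units among arrays of the other strains. Choroid plexus markers had 0 of 9 called and a median of -0.01, which was 0.08 under quantile normalization.

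**Figure D3:**
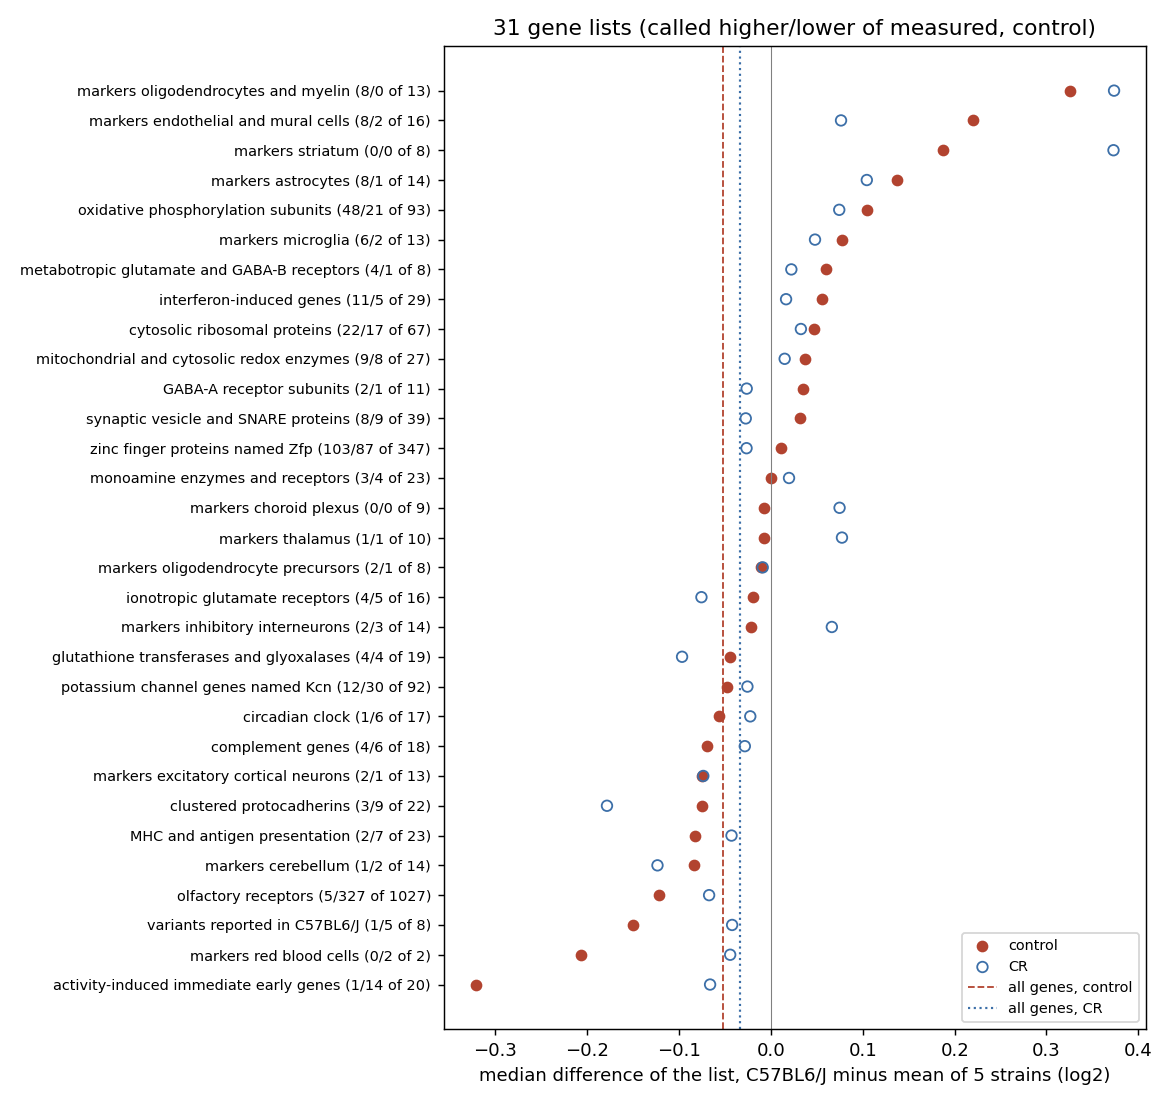
Median difference (horizontal axis, log2) of C57BL6/J from the 5 other strains over the measured members of 31 gene lists, in control (filled) and CR mice (open), with the number called higher and lower in control mice beside each name; vertical lines mark the medians over all genes. Myelin markers lie at 0.33 and 0.37, immediate early genes at -0.32 and -0.07.

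Of 11 GABA-A subunits Gabra2 was the only one called lower, while Gabra4 (0.22 ± 0.051) and Gabrb2 (0.17 ± 0.041) were higher, each against 3 of the 5 strains. The further Gabrb2 probe sets gave -0.065 and 0.009, neither of them called, so the Gabrb2 call rests on a single probe set. Thus the subunit list as a whole stood at a median of 0.04. Of 16 ionotropic glutamate receptor genes 4 were higher and 5 lower, near the shares over all genes, with Grin2c, an NMDA receptor subunit, at 0.20 and Grik4, a kainate receptor subunit, at -0.22. Maob, the mitochondrial monoamine oxidase of astrocytes, was at 8.97, 9.18 and 9.34 in C57BL6/J and 8.36, 8.67 and 9.09 in the others, higher than in each strain (0.46 ± 0.055). Its partner Maoa was higher by 0.26. The serotonin receptor Htr6 was lower than in each strain (-0.39 ± 0.055) and the histamine autoreceptor Hrh3 lower by 0.29. Kcnj10, the potassium channel Kir4.1 through which astrocytes take up potassium, was at 9.27 to 9.52 in C57BL6/J and 9.56 to 10.41 in the others, without overlap (-0.55 ± 0.046). Kcnf1, a modifier subunit of voltage-gated channels, was higher by 0.39. Of 92 potassium channel genes 12 were higher and 30 lower. The share lower was 32.6%, near the 31.4% of all genes, and the share higher was below their 21.7%. Among 39 synaptic vesicle and SNARE genes 8 were higher (20.5%) and 9 lower (23.1%). Syt12 (0.29) and Snap25 (-0.17) were the 2 that differed from each strain.

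Of 93 subunits of oxidative phosphorylation 48 were called higher (51.6%) and 21 lower (22.6%), where the brightest of the 5 signal groups of all genes had 39.5% higher and 20.7% lower. The median was 0.10, and in CR mice 44 and 15 (median 0.07). Under quantile normalization the counts were 39 and 17 with a median of 0.06. Sdha, the flavoprotein of succinate dehydrogenase, was at 11.36, 11.45 and 11.46 in C57BL6/J and 10.74, 11.06 and 11.22 in the others, without overlap (0.39 ± 0.027, adjusted p = 6.01e-16). Ndufs1 (0.42) and Ndufa9 (0.38) of complex I were also higher than in each strain, and Ndufs7 of the same complex was lower (-0.34 ± 0.031). Of 27 redox enzymes 9 were higher (33.3%) and 8 lower (29.6%), where all genes had 21.7% higher and 31.4% lower. Gsr, glutathione reductase, which uses NADPH, was at 8.66 to 8.86 in C57BL6/J and 9.004 to 9.54 in the others, without overlap (-0.51 ± 0.040), and Glrx, glutaredoxin, was -0.34. Msrb2 (0.29) and Prdx1 (0.27), which repair oxidised methionine and remove peroxides, were higher. Neither was called against Balbc/J (0.12 and 0.04). Hagh, glyoxalase 2, the step after Glo1, was higher than in each strain (0.27 ± 0.040).

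Ribosomal protein genes were split, 22 of 67 higher (32.8%) and 17 lower (25.4%), with a median of 0.05. Rpl29 was at 9.88 to 10.25 in C57BL6/J and 10.39 to 10.86 in the others, without overlap (-0.55), and Rps7 at 10.85 to 10.98 in C57BL6/J and 10.08 to 10.75 in the others (0.40). Rps9 was lower (-0.42), whereas its other probe set gave 0.11 and was not called. Zinc finger genes named Zfp were also split, 103 of 347 higher (29.7%) and 87 lower (25.1%), or 57 and 75 with olfactory receptor signal in the fit. Zfp874a (0.57), Zfp110 (0.51) and Zfp369 (0.48) had no array overlapping with the other strains, and Zfp384 was lower (-0.39). Of 22 clustered protocadherins, the adhesion proteins that give neurons their identity, 3 were higher (13.6%) and 9 lower (40.9%), and in CR mice 0 and 14. Over all genes in control mice 21.7% were higher and 31.4% lower. Pcdhb8 (-0.49 ± 0.050) was lower than in each strain, and Pcdhb3 (-0.54) lower than in 4. Near-identical copies share probes in such families, so single members are uncertain.

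B2m, the light chain of major histocompatibility complex class I, was at 11.27, 11.49 and 11.75 in C57BL6/J and 10.27, 10.77 and 11.16 in the others, without overlap (0.77 ± 0.055, adjusted p = 6.90e-16). Of the 23 genes of antigen presentation 2 were higher (8.70%) and 7 lower (30.4%), against 21.7% and 31.4% of all genes. Among the lower ones was H2-Ea (-0.41), a class II chain known to be unexpressed in this haplotype. H2-Ea was also level with 129S1/SvImJ (0.04). H2-M2 was lower at -0.32 but dim (4.94 to 5.23 in C57BL6/J). Of 29 interferon-induced genes 11 were higher (37.9%) and 5 lower (17.2%), or 16 and 2 under quantile normalization. Trim30a (0.34) and the GTPase Irgm1 (0.33) were among the higher ones, but 0 of the 29 were higher than in each strain. Trim30a was not called against C3H/HeJ (0.15), nor Irgm1 against Balbc/J (0.08) or C3H/HeJ (0.19). Of 18 complement genes 4 were higher (22.2%) and 6 lower (33.3%), shares near the 21.7% and 31.4% of all genes, with a median of -0.07, which turned to 7 higher, 2 lower and a median of 0.02 under quantile normalization. C1qc (0.55) and C1qa (0.26), chains of the first component, were higher, C1qc being level with 129S1/SvImJ (-0.01) and C1qa not called against Balbc/J (0.06). Cfp, properdin, which stabilises the alternative pathway, was lower than in each strain (-0.41 ± 0.062).

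Immediate early genes, which neurons switch on within minutes of activity, were lower in the control mice. Of 20, 14 were called lower (70%, against 31.4% of all genes) and 1 higher, with a median of -0.32. However, 0 of them were called lower against each of the 5 strains. The mean signal of the list had a median of 8.60 in C57BL6/J, near 8.67 in DBA/2J and 8.68 in 129S1/SvImJ. It was 8.82 in C3H/HeJ, 8.96 in CBA/J and 9.14 in Balbc/J. Npas4 was at 7.47, 7.82 and 8.37 in C57BL6/J and 7.56, 8.87 and 9.83 in the others (-0.94 ± 0.191, adjusted p = 8.50e-05). The groups overlapped. Fosb (-0.35) and Nr4a3 (-0.49) were lower too, and Nptx2, which gathers AMPA receptors at synapses, was higher (0.29). In CR mice 2 were lower and 1 higher, with a median of -0.07, and 0 of the 20 differed between the diets in the test of that difference. Without C57BL6/J replicate 8 the control count was 10 lower.

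Of 17 clock genes 6 were lower (35.3%) and 1 higher (5.88%), against 31.4% lower and 21.7% higher over all genes. Dbp, a clock output factor, was at 9.05, 9.31 and 9.51 in C57BL6/J and 9.51, 9.79 and 10.06 in the others, without overlap (-0.47 ± 0.058), and Ciart (-0.49; -0.31 by its other probe set) and Per3 (-0.26), both repressors, were lower. Arntl, the activator that drives them, was higher (0.29 ± 0.052). All 4 differed from each strain. In CR mice Dbp differed by -0.30, Arntl by 0.15, Per3 by -0.08 and Ciart by -0.12, the last not called (adjusted p = 0.222).

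The CR mice gave a repeat in other animals. There 3126 genes were called higher (15.7%) and 3941 lower (19.8%), and 1062 differed from each of the 5 strains (5.33%). Of the 10573 genes called in control mice, 5524 were called in the same direction in CR mice and 4 in the opposite one. Of the 1747 that differed from each strain, 1465 were called the same way again, 662 again differed from each strain, and 10 had the other sign. For 107 genes the C57BL6/J arrays lay beyond all others in both diets, on the same side. The 12 highest and the 12 lowest genes named above kept their direction and their call against the mean of the 5 strains in CR mice, but Tmem267, Gas5 and Masp2 were not called against each strain there.

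**Figure D4:**
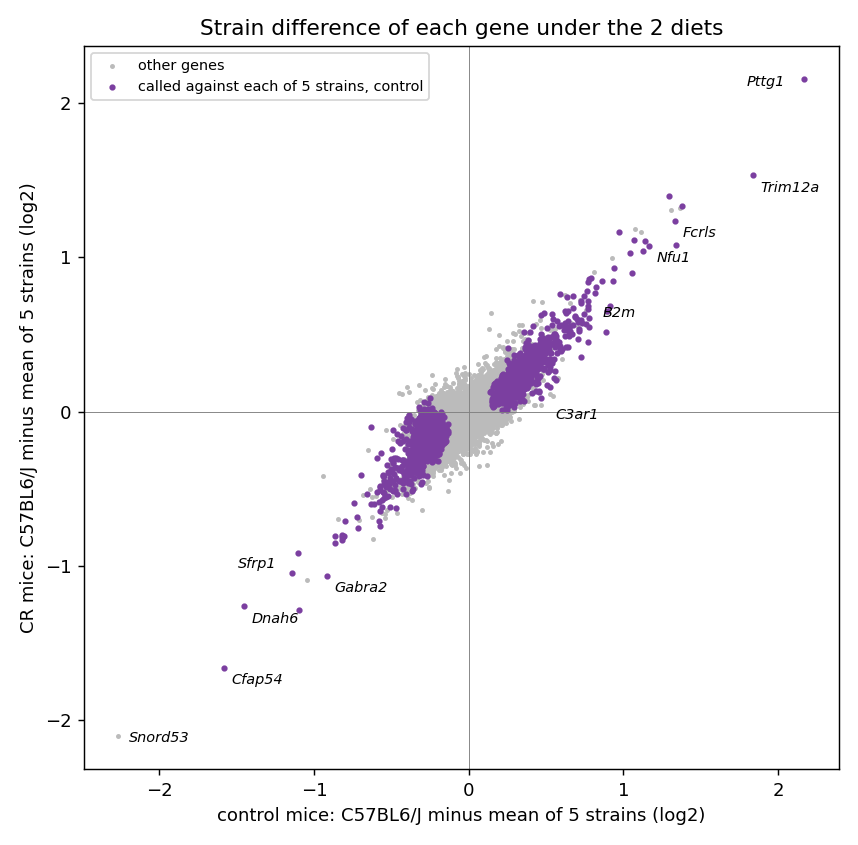
Difference of C57BL6/J from the mean of the 5 strains in CR mice (vertical axis, log2) against that in control mice (horizontal axis, log2), 1 point per gene; genes called against each of the 5 strains in control mice are purple. Pttg1 lies at 2.17 and 2.16, Cfap54 at -1.58 and -1.66, and C3ar1 at 0.47 and 0.09.

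The test of the difference between the diets called 4 genes (0.0201%), with 2855 at an unadjusted p under 0.05. All 4 are named here after their values were seen. Sorcs3, a sorting receptor of neurons, was higher by 0.45 in control and by 0.14 in CR mice (difference 0.32 ± 0.052, adjusted p = 0.000473). Its C57BL6/J arrays were at 9.31 to 9.54 in control mice and 9.03 to 9.33 in CR mice. Ptprg, a receptor phosphatase, was higher by 0.18 in control and lower by 0.13 in CR mice (adjusted p = 0.0243). B3galt6, which builds the linker of proteoglycan chains, was higher by 0.56 and by 0.21 (adjusted p = 0.027), and C3ar1, the receptor for complement C3a on microglia, by 0.47 and by 0.09 (adjusted p = 0.0352). The count changed with single arrays: it was 0 with C57BL6/J replicate 6 included, 1 without replicate 1, 5 or 8, and 17 without replicate 2.

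Mice with a C57BL6/J and a C3H/HeJ parent lay between the parents for the genes with the largest differences. Pttg1 averaged 7.78 in B6C3F1/J, against 8.67 in C57BL6/J and 6.40 in C3H/HeJ, which places the hybrid 0.61 of the way from C3H/HeJ to C57BL6/J on the log2 scale. The position was 0.43 for Fcrls, 0.40 for Nfu1, 0.30 for Cfap54, 0.32 for Gabra2 and 0.45 for Dnah6. Il33 lay nearer the C3H/HeJ level (0.20). Of the 107 genes without overlap in both diets, 92 of the hybrid means lay between the parents in control mice and 89 in CR mice, at a median position of 0.29 and 0.30. Over all 1747 genes the median position was near 0, at -0.004 in control and -0.05 in CR mice, with 865 and 741 between the parents. These positions are a description without a test: they share the C57BL6/J and C3H/HeJ means with the contrast, and a small parental gap makes them imprecise.

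**Figure D5:**
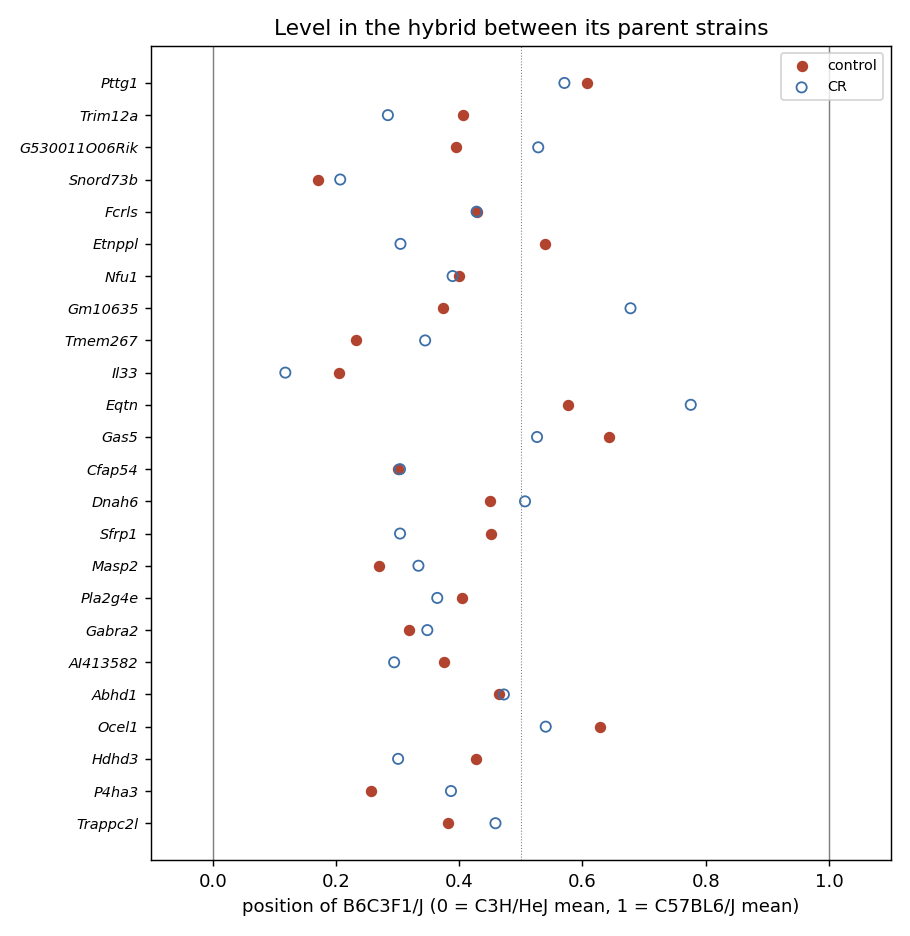
Position of the B6C3F1/J mean between its parents (horizontal axis; 0 is the C3H/HeJ mean, 1 the C57BL6/J mean) for the 12 highest and 12 lowest genes, in control (filled) and CR mice (open). Pttg1 lies at 0.61 and 0.57, Il33 at 0.20 and 0.12.

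The position of the genes was read as a description. Of the 1742 that could be placed in the gene order of GRCm38.p6, 251 (14.41%) had an adjacent tested gene that also differed from each strain in the same direction, and 8.04% had one in the opposite direction. In either direction the share was 22.0%, against 16.7% of all 19855 placed genes, and this difference was not tested. There were 5 runs of 3 genes, all higher, for example Nit1, Pfdn2 and Klhdc9 (median 0.42). By type, 20 of 53 snoRNA genes were called higher (37.7%) and 8 lower (15.1%), with a median of 0.13. Of 675 long noncoding RNA genes 365 were lower (54.1%) and 43 higher (6.37%), with a median of -0.15 (157 and 61 under quantile normalization). Over all genes 31.4% were lower and 21.7% higher, and in the second dimmest of the 5 signal groups 50.7% and 7.32%. MicroRNA genes also leaned lower, with 39.1% lower and 6.40% higher.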

How the data were processed

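On Affymetrix Gene 1.0 ST arrays, 1 per mouse, the signals were summarised per gene by the authors, who deposited them as log2 values from the RMA-Sketch method of Expression Console. RMA includes a step that draws the arrays towards a common distribution, so a shift common to all genes may not be seen; array medians still ranged from 7.14 to 7.26. Sequence differences between strains within probes were not examined. Of 35556 probe sets, 21789 had exactly 1 gene symbol in the platform annotation, 1621 several and 12146 none, and 21698 matched a current gene reference. Where a gene had several probe sets (999 genes), the one of highest mean signal stood for it, which left 19938 genes. Dim genes were kept.

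Strain means of the control arrays were estimated with limma (lmFit and eBayes; version 3.58.1, R version 4.3.3) in two-sided tests with 41 residual degrees of freedom, and C57BL6/J was set against the equal-weight mean of 5 strains and against each strain. Calls required p under 0.05 after Benjamini-Hochberg adjustment across the whole table. CR arrays were fitted separately, and the difference between diets in a joint fit. Arrays are separate mice, and their number limits the precision. The median standard error was 0.052 log2 units.

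Genes named were the 12 highest and 12 lowest among those called against each strain, Nnt and Gabra2, and up to 4 members of each of 31 lists, with called members before others and smaller p before larger. Members and lists were chosen with earlier results of these data known. Of the lists, markers of thalamus (1 higher and 1 lower of 10), of red blood cells (0 and 2 of 2) and of cerebellum (1 and 2 of 14), metabotropic glutamate and GABA-B receptors (4 and 1 of 8), monoamine enzymes and receptors (3 and 4 of 23) and glutathione transferases and glyoxalases (4 and 4 of 19) are not described in full. Replicate numbers did not pair the mice: the mean correlation of deviations between same-numbered arrays of different strains was 0.0095. Other settings tried were scaling, filters, weights, arrays and strains left out, single probe sets, the methods' t-test and a test against a 1.5-fold difference. Plots were drawn with matplotlib 3.10.9 in Python 3.11.15.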

Additional observations from a re-analysis of the deposited data

Results flagged for a closer look

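In 14 of 190 groups tested (C57BL6/J control and CR arrays of each named gene), the lowest or highest array stood apart from the rest by Dixon's test at the 95% level; chance marks about 1 group in 20. Among control arrays these were Snord73b (replicate 8 at 7.52, next 7.99), Trappc2l (replicate 1 at 9.65, next 9.53), Prdx1 (replicate 2 at 9.87, next 9.96), Cfp (replicate 1 at 7.53, next 7.97), Sdha (replicate 4 at 11.36, next 11.43), Fosb (replicate 4 at 8.52, next 8.29) and Penk (replicate 3 at 12.04, next 12.44). Among CR arrays they were Gabra2 (replicate 1 at 8.96, next 9.36), Hagh (replicate 5 at 9.64, next 9.53), Ndufs7 (replicate 2 at 11.99, next 11.89), Npas4 (replicate 8 at 7.80, next 8.22), Opalin (replicate 7 at 7.51, next 7.84) Penk (replicate 1 at 12.06, next 12.58) and Pvalb (replicate 1 at 9.78, next 9.42).

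The difference between C57BL6/J and the other strains itself differed between control and CR mice for B3galt6 (0.36), C3ar1 (0.38), Ptprg (0.31) and Sorcs3 (0.32), each control minus CR in log2 units and past the adjusted threshold of limma. In the array left out of all comparisons, C57BL6/J control replicate 6, cerebellar markers lay 4.03 log2 units above the other arrays of its group.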

How the results depend on the processing

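Of 2371 values of 95 named genes under the alternatives, 2285 kept direction and call, 84 lost the call and 2 turned direction. Most losses came from the test against a 1.5-fold difference. The 2 that turned were other probe sets of Gabrb2 (-0.065) and Rps9 (0.11). Besides Nnt and Pla2g2a, Gabra4, Htr3a, Kcnf1, Nptx2, Pdgfra and Ptprg lost their call with C57BL6/J control replicate 6 included, and Ptprg also with mean olfactory receptor signal in the fit (the olfactory covariate). The cause was not tested. The 10573 genes called became 5889 among genes above the median gene (fewer genes tested), 5781 with the olfactory covariate and 37 against a 1.5-fold difference (23 higher, 14 lower, and 6 against each strain). Genes called lower, 6252, became 4112 under quantile normalization, 4065 under cyclic loess, 2197 above the median gene and 2985 with the covariate, and those called higher, 4321, became 2796 with the covariate. The share called higher was 40.9% in the fit reported and 62.7% above the median gene. Genes called against each strain, 1747, became 1026 with the covariate and 3024 without Balbc/J (fewer strains required). Leaving out each C57BL6/J control replicate in turn gave 8959 to 10408 genes called, 3836 to 4358 higher, 5123 to 6125 lower and 1325 to 1845 against each strain. The 4 genes that differed between diets became 1 under quantile normalization, 2 above the median gene, 8 under cyclic loess, 0 with C57BL6/J control replicate 6 included, and 1 to 17 without 1 replicate. With the replicate number as a block, 10479 genes were called and 2 differed between diets, and no other count moved by over 1.5 times. Since the mice share only a number, this block is no pairing. The methods' t-test called 7083 genes at p under 0.01 and 8560 after adjustment. In CR mice the count stayed between 5457 and 8109. Cyclic loess, the olfactory covariate and leaving out CBA/J CR replicate 6 were chosen after seeing the data.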
